A study of Mus musculus with 4 samples.

Results

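The genes described here are 40 mouse genes of phospholipid and sphingolipid synthesis, 16 of the phospholipid branch and 24 of the sphingolipid branch. They were taken by symbol from a fixed list, with no cutoff on a measured value. That list was chosen with earlier results of these data known, and each member had 1 row in every count table of 25567 genes. They were followed in single nuclei of the adult mouse hippocampus by Smart-seq2, in which each well of a plate receives 1 sorted nucleus and whole transcripts are amplified without molecular identifiers. The mice were wild type (WT) or carried Fasn-R1812W, an arginine to tryptophan substitution in the fatty acid synthase that makes palmitate from acetyl and malonyl units, and all were 8.5 months old. Sorting used 1 of 2 gates. NeuN+ nuclei were those that an antibody to NeuN, a protein of mature neurons, had labelled. EdU+ nuclei were those with EdU, a thymidine analogue, in newly made DNA after doses of 100 mg per kg given 2 times a day for 3 days, with isolation on day 4. Each genotype had 1 library per gate, so 4 libraries stood for 4 groups. Values listed by 4 give the NeuN+ pair first and the EdU+ pair second, WT before Fasn-R1812W. The labels do not say how many mice gave each library or whether their tissue was pooled.

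Fatty acids made by fatty acid synthase enter membranes through both branches. In the phospholipid branch, choline and ethanolamine are phosphorylated by kinases, activated by CTP-dependent transferases and joined to diacylglycerol, which gives phosphatidylcholine and phosphatidylethanolamine, and lysophospholipid acyltransferases then exchange the acyl chains. In the sphingolipid branch, serine and palmitoyl-CoA are condensed by serine palmitoyltransferase under the brake of the ORMDL proteins, and ceramide synthases and a desaturase complete ceramide. Ceramide is turned into sphingomyelin, glucosylceramide or galactosylceramide, and the last of these and its sulfated form are the characteristic glycolipids of myelin, the membrane that oligodendrocytes wrap around axons.

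The libraries held 36368990 to 96597804 reads, the fewest in EdU+ WT. Wells were used when they had 1000 genes or more and 50000 reads or more, and 314, 301, 167 and 348 nuclei met this in the order just given. Kept nuclei had a median of 4395.5, 4417, 1298 and 3006 genes, so the EdU+ WT library was the shallowest, and only 41.5% of its reads lay in kept nuclei against 97.0% to 98.8% in the other libraries. Every pair of libraries shared all of its well names, which are index pairs and do not show that nuclei were shared. Levels are given as CPM, a gene's reads per 1000000 nuclear-encoded reads after adding up all nuclei used from a library. Summed CPM of 4 detected pan-neuronal markers was 5305 and 5023 in the NeuN+ pair and 965 and 636 in the EdU+ pair, in the order WT, Fasn-R1812W. The 8 oligodendrocyte precursor markers summed to 363 and 381 CPM in NeuN+ and to 10681 and 8642 CPM in EdU+. In pooled libraries, fewer cells of a type and less RNA per cell cannot be told apart.

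**Figure D1:**
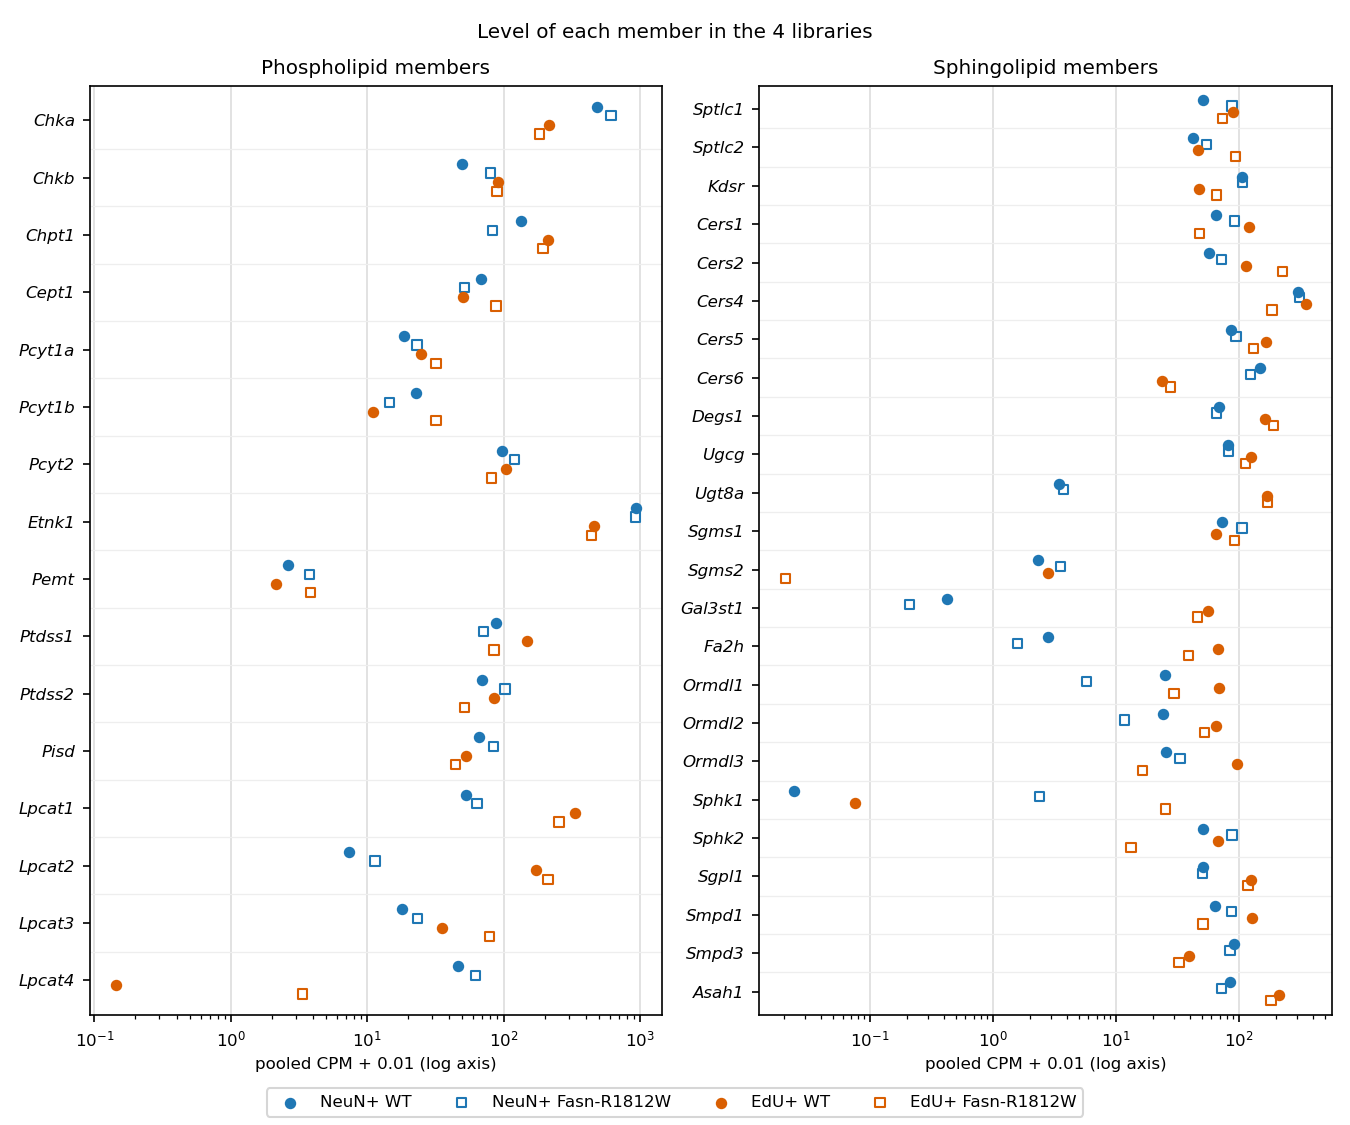
Level of each of the 40 members in the 4 libraries, as pooled CPM with 0.01 added on a log axis; filled circles are WT and open squares Fasn-R1812W, blue NeuN+ and orange EdU+. Ugt8a, Gal3st1, Fa2h and Lpcat2 lie far to the right in EdU+, and Lpcat4 lies far to the left.

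Members of the phospholipid branch differed widely in level. Per kb of exon, Etnk1, the ethanolamine kinase that opens the phosphatidylethanolamine route, stood highest in the mean of the 4 libraries, with 66.5 and 65.4 CPM per kb in NeuN+ WT and Fasn-R1812W and 32.5 and 31.2 in EdU+ WT and Fasn-R1812W. Lpcat1, a lysophosphatidylcholine acyltransferase, came next at 11.5, 13.8, 72.5 and 54.9 CPM per kb in the same order. Chka, a choline kinase, was at 40.0, 50.9, 18.0 and 15.3 CPM per kb. The acyltransferase Lpcat2 (2.18, 3.36, 50.8 and 62.6) and the choline kinase Chkb (16.3, 26.3, 29.8 and 29.2) completed the 5 highest by the mean of the 4 libraries. For Chkb, 50.7% of the exon bases are shared with Gm44502 on the same strand, so its level may hold reads of that gene. The order therefore depended on the gate: the kinases Etnk1 and Chka led in NeuN+, and the acyltransferases Lpcat1 and Lpcat2 led in EdU+. Pemt, which methylates phosphatidylethanolamine to phosphatidylcholine, was the lowest member of the branch in the mean of the libraries, at 2.63, 3.78, 2.13 and 3.84 CPM.

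Among sphingolipid members, Degs1, the desaturase that makes ceramide from dihydroceramide, was highest per kb at 26.9, 25.5, 63.2 and 74.4 CPM per kb. Asah1, the lysosomal acid ceramidase, was at 25.0, 21.5, 62.3 and 54.1. The ceramide synthases Cers5 (24.4, 26.8, 46.8 and 37.3), Cers2 (15.6, 19.8, 31.4 and 61.7) and Cers1 (20.7, 29.3, 38.5 and 15.1) followed. Of the exon bases of Cers1, 42.5% are shared with Gdf1 on the same strand. The sphingosine kinase Sphk1 had 1 read in each WT library. The sphingomyelin synthase Sgms2 was at 2.33, 3.56, 2.79 and 0.0105 CPM, the last from 1 read. Many values rested on few nuclei: 1 nucleus held over 20% of the reads of 8 members in each NeuN+ library, of 21 members in EdU+ WT and of 16 in EdU+ Fasn-R1812W.

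Genes that make the glycolipids of myelin were among the members that differed between the gates. Of 38 members tested, 6 passed when gate and genotype were fitted additively to the 4 libraries, 5 of them higher in EdU+ and 1 lower (edgeR quasi-likelihood test, Benjamini-Hochberg adjusted over 13853 genes, threshold 0.05). Over all genes tested, 7.15% were called, 4.24% higher and 2.92% lower. The phospholipid branch gave 2 called higher of 15 tested and the sphingolipid branch 3 higher and 1 lower of 23. The median log2 difference, EdU+ minus NeuN+, was 0.15 over the phospholipid and 0.51 over the sphingolipid members, against -0.04 over all genes, and it was above 0 for 25 of 38 members, against 48.4% of all genes. Both EdU+ libraries lay above both NeuN+ libraries for 17 of the 38 members (44.7%), against 30% of all genes, and below them for 7 (18.4%), against 29.3%. The other 14 overlapped. The number of members called was 14 with DESeq2, which called 22.6% of all genes. With 1 library left out, gate alone was fitted, so the genotype term was dropped together with the library, the gate with 2 libraries gave the spread and the other gate's lone library was assumed to vary alike. In that form the number was 3 without either NeuN+ library, 16 without EdU+ WT and 17 without EdU+ Fasn-R1812W, which does not separate the library from the form of the fit. With a strict nucleus filter, which left 5 EdU+ WT nuclei, it was 0 (lowest adjusted p = 0.339, edgeR). The fit had 1 residual degree of freedom per gene. Each gate and genotype had 1 library, so this residual held the gate by genotype interaction together with library noise. A member whose genotype ratio differed between the gates therefore got a larger error. Nothing says that the libraries came from separate animals, so the p-values do not measure a spread between animals.

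Ugt8a, the transferase that makes galactosylceramide, was at 3.44 CPM in NeuN+ WT, 3.78 in NeuN+ Fasn-R1812W, 170 in EdU+ WT and 173 in EdU+ Fasn-R1812W. The gates lay far apart and the genotypes close together. The fitted difference was 46.5-fold (log2 5.54, adjusted p = 0.00900, edgeR). After thinning every nucleus to 50000 reads, 2.23% and 2.66% of NeuN+ nuclei had a Ugt8a read, against 16.2% (95% Clopper-Pearson interval 10.9% to 22.6%) and 22.4% (18.1% to 27.2%) of EdU+ nuclei. Gal3st1, which sulfates galactosylceramide, was at 0.417 and 0.199 CPM in NeuN+ and 56.1 and 46.1 CPM in EdU+, a log2 difference of 7.41 (adjusted p = 0.0166, edgeR). Its NeuN+ levels rested on 29 and 14 reads. Fa2h, which hydroxylates the fatty acids of these lipids, was at 2.81 and 1.58 CPM in NeuN+ and 67.7 and 39.3 CPM in EdU+, a log2 difference of 4.58 (adjusted p = 0.0285, edgeR). For none of these genes did the gates overlap. In the fits of gate alone with 1 NeuN+ library, the log2 difference of Fa2h was 5.04 without WT (adjusted p = 0.0980, edgeR) and 4.18 without Fasn-R1812W (adjusted p = 0.117, edgeR), so it was not called. Summed CPM of 12 mature oligodendrocyte markers also moved with the gate, at 344 and 475 in NeuN+ and 1328 and 968 in EdU+. That of 8 committed oligodendrocyte precursor markers was 39.4 and 47.4 in NeuN+ and 2833 and 1682 in EdU+, with 1 of the 8 at 0 in NeuN+ WT. The part of these markers, and of the precursor markers above, in these differences was not tested.

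Promoter sequences are shown for the 4 called members higher in EdU+ that had an entry in RefSeq's promoter table (build GRCm38.p6), since these genes differed together between the gates. Of the 40 members, 35 matched by symbol. The 250 bases before each RefSeq start are given 5′ to 3′ on the gene's strand. The bases just after the start were found in GENCODE M21 transcripts of the gene for Gal3st1 and Lpcat1 and not for Ugt8a and Lpcat2. The Ugt8a and Lpcat2 windows end before the gene start of that annotation (chr3:125938619 and chr8:92855339). The Lpcat1 window runs past it (chr13:73467197), so its last bases lie within the gene. Capitals mark matches, on either strand, to 4 hexamers, the SOX-type ACAAAG and ACAATG and the E-boxes CAGCTG and CAGATG.
Ugt8a, chr3:125938653-125938902, minus strand: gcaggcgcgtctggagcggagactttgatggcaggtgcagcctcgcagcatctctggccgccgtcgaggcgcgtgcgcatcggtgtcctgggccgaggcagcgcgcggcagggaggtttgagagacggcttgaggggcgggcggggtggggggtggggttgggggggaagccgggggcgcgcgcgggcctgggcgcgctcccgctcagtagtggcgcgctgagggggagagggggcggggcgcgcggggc
Gal3st1, chr11:3983386-3983635, plus strand: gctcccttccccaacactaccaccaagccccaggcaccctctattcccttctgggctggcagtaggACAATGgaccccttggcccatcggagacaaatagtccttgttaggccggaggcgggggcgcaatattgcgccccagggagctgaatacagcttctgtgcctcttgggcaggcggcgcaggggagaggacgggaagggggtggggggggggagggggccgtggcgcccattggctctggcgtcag
Lpcat1, chr13:73466981-73467230, plus strand: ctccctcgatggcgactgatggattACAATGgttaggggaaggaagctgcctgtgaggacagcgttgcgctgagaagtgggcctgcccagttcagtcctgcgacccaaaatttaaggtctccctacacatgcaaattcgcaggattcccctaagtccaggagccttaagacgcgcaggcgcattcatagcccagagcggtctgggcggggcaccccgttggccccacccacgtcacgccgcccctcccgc
Lpcat2, chr8:92855083-92855332, plus strand: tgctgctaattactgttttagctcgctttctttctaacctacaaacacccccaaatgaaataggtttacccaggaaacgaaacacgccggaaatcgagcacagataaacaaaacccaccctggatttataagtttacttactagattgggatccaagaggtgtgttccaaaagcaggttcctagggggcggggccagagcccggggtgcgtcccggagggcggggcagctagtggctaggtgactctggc
Gal3st1 has 3 starts in the table and the first is shown. The window of the second overlaps it and also holds ACAATG once, and the window of the third holds none of the 4 hexamers. ACAATG occurred once in the Gal3st1 and once in the Lpcat1 window, and this hexamer occurs in 10.7% of 32817 windows of the same length. ACAAAG occurs in 16.5% of those windows, CAGCTG in 13.0%, CAGATG in 14.5%, and any of the 4 in 44.2%. The Ugt8a and Lpcat2 windows held none of these letters.

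**Figure D2:**
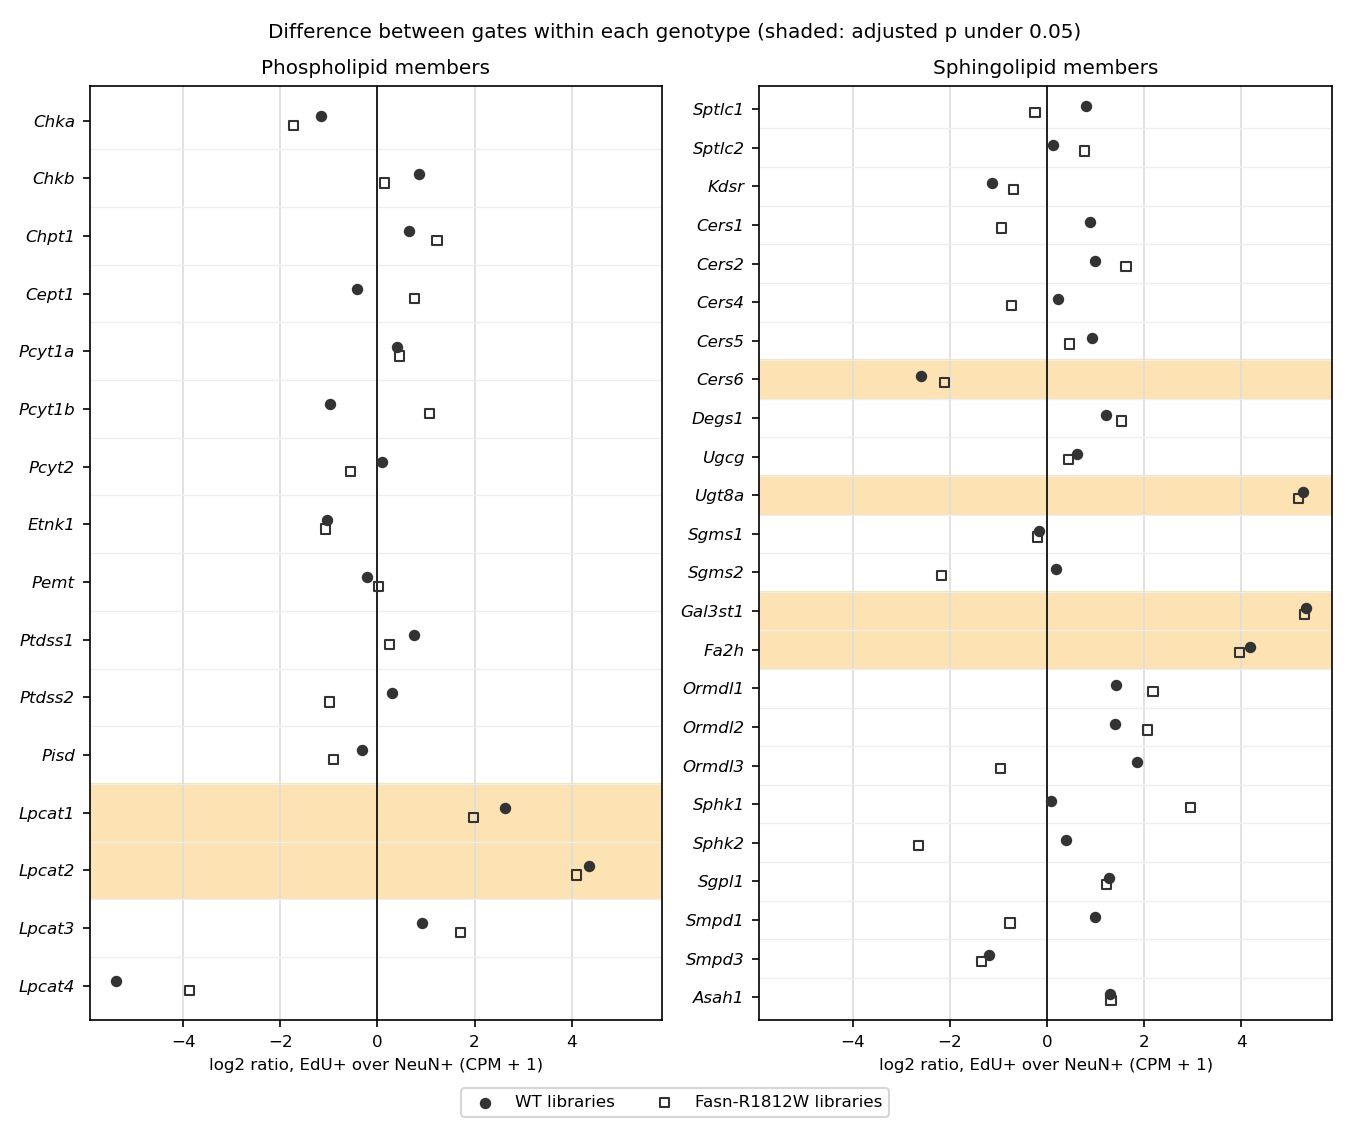
Log2 ratio of EdU+ over NeuN+ for each member, with 1 CPM added, within the WT libraries (filled circles) and within the Fasn-R1812W libraries (open squares); the 6 members with an adjusted p under 0.05 are shaded. Both points of each shaded member lie on the same side of 0.

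Of the 4 lysophospholipid acyltransferases, described together after their values were seen, Lpcat1 and Lpcat2 were called higher in EdU+, and Lpcat3 and Lpcat4 did not pass. Lpcat1 was at 53.5 and 63.9 CPM in NeuN+ and at 336 and 254 CPM in EdU+, a difference of 4.90-fold (log2 2.29, adjusted p = 0.0240, edgeR). The share of thinned nuclei with a Lpcat1 read overlapped between the gates, 27.7% and 33.2% in NeuN+ and 28.1% and 30.5% in EdU+. Lpcat2 was at 7.40 and 11.4 CPM in NeuN+ and at 172 and 212 CPM in EdU+, or 20.4-fold higher (log2 4.35, adjusted p = 0.0105, edgeR). Lpcat4 had 46.5 and 62.4 CPM in NeuN+ and 0.133 and 3.34 CPM in EdU+, the former of these from 2 reads. Its gates did not overlap, and its adjusted p was 0.0617 (edgeR). Lpcat3 was at 18.1, 23.5, 35.3 and 78.9 CPM, with adjusted p = 0.265 (edgeR) and 51.0% of its EdU+ WT reads in 1 nucleus. In the fits of gate alone with 1 NeuN+ library, Lpcat1 was not called, with a log2 difference of 2.17 without WT (adjusted p = 0.0972, edgeR) and 2.40 without Fasn-R1812W (adjusted p = 0.0657, edgeR), and Lpcat2 was.

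Cers6, a ceramide synthase, was the only called member lower in EdU+. It was at 150 and 125 CPM in NeuN+ and 23.9 and 28.0 CPM in EdU+, 5.39-fold lower (log2 -2.43, adjusted p = 0.0373, edgeR), and the gates did not overlap. A read was found in 57.0% and 52.5% of thinned NeuN+ nuclei and in 2.99% and 7.18% of EdU+ nuclei. With gate alone and 1 NeuN+ library, its log2 difference was -2.29 without WT (adjusted p = 0.147, edgeR) and -2.59 without Fasn-R1812W (adjusted p = 0.0872, edgeR). Cers2, the synthase of very long acyl chains that myelin lipids carry, was at 57.5 and 72.9 CPM in NeuN+ and 115 and 227 CPM in EdU+, which did not pass (adjusted p = 0.112, edgeR). Cers4 stood at 304, 311, 353 and 187 CPM and Cers1 at 65.7, 92.9, 122 and 47.8 CPM, both with overlapping gates.

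Several members lay just outside the threshold. Chka (481 and 613 CPM in NeuN+, 216 and 184 in EdU+) had an adjusted p of 0.0502 and Etnk1 (941 and 925, 461 and 441) one of 0.0660 (edgeR). For both kinases, each EdU+ value lay below each NeuN+ value. Asah1 (84.8 and 73.0 CPM in NeuN+, 211 and 183 in EdU+) had an adjusted p of 0.0784 and Degs1 (69.7 and 66.0, 164 and 193) one of 0.0820 (edgeR). Serine palmitoyltransferase, the entry to the sphingolipid branch, showed little: its subunit Sptlc1 was at 51.5, 88.4, 90.5 and 74.3 CPM and Sptlc2 at 42.8, 54.6, 47.0 and 93.9 CPM, with overlapping gates. The unadjusted p was under 0.05 for 17 of the 38 members, against 23.6% of all genes.

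For a genotype difference common to both gates, edgeR called no member and DESeq2 called 1. In the same edgeR fit 0 of 38 members passed, with 0.00% of 13853 genes called, and 2 members, Sphk1 and Ormdl1, and 278 genes (2.01%) had an unadjusted p under 0.05 (edgeR). The genotype difference was above 0 for 17 of the 38 members, against 52.1% of all genes. With DESeq2, 51 genes and 1 member passed, Sphk1, a sphingosine kinase (adjusted p = 0.00969, DESeq2). It reached the mean of 5 CPM needed for testing only through EdU+ Fasn-R1812W, so the call rests on the library where it was high. Sphk1 was at 1 read in each WT library (0.0144 CPM in NeuN+ and 0.0665 in EdU+), and at 2.39 and 25.3 CPM in the Fasn-R1812W libraries. In EdU+ Fasn-R1812W, 55.2% of those reads lay in 1 nucleus, and 3.16% of thinned nuclei had a read, against 0.599% in EdU+ WT.

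Within NeuN+, genotypes were compared as 1 library each, with no replicate check and no test. Members were counted when 1 library of the pair reached 10 CPM with 10% of its nuclei holding a read, which 33 of 40 did, 14 phospholipid and 19 sphingolipid. Of the 33, 1 was at least 2-fold apart, against 6.19% of 10865 genes (3.18% higher and 3.02% lower in Fasn-R1812W). It was Ormdl1, 1 of the 3 ORMDL brakes on serine palmitoyltransferase, at 25.0 CPM in WT (95% Poisson interval 23.9 to 26.2, counting error only) and 5.80 in Fasn-R1812W (5.25 to 6.39). On the log2 scale with 1 CPM added, its ratio was -1.94. It passed the filter through WT alone, since 13.4% of nuclei held a read there against 7.64% in the other library, so the count rests on the library where it was high. The other brakes did not follow together: Ormdl2 was at 24.0 and 11.8 CPM and Ormdl3 at 25.8 and 33.3 CPM. Of the exon bases of Ormdl2, 66.7% are shared with Dnajc14 on the opposite strand, whose reads cannot be told apart here. Ormdl1 shares 8.72% of its exon bases with Gm28778 on the same strand. Summed CPM of 12 astrocyte markers was 2085 in the WT library and 928 in the Fasn-R1812W library of this gate. Markers of neuron classes differed too, WT before Fasn-R1812W: dentate granule 726 and 419 CPM, mossy 132 and 258, CA1 293 and 390, interneuron 1549 and 2102. Those of CA3 (168 and 162) and of subicular or entorhinal neurons (317 and 342) were closer. The part of any of these in the ratios was not tested.

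Within EdU+, 36 members passed, and 7 were at least 2-fold apart, against 25.4% of 9186 genes. Lower in Fasn-R1812W were 5, all sphingolipid members, against 8.01% of all genes, and higher were 2, both phospholipid members, against 17.4%. Genes of the same pathways beyond the members did not split this way. Of 20 such phospholipid genes that passed, 1 was at least 2-fold higher and 4 were lower. Of 19 such sphingolipid genes, 3 were higher and 2 lower. Ormdl3 was at 96.1 CPM in WT and 16.6 in Fasn-R1812W (log2 ratio -2.47). Sphk2, the other sphingosine kinase, was at 67.3 and 13.3 CPM (-2.26). Of its exon bases, 13.0% are shared with Dbp and 8.97% with Rpl18, both on the opposite strand. Smpd1, the lysosomal acid sphingomyelinase, was at 128 and 51.4 CPM (-1.30), Cers1 at 122 and 47.8 CPM (-1.33) and Ormdl1 at 69.1 and 29.9 CPM (-1.18). The members higher in Fasn-R1812W were Lpcat3 (35.3 and 78.9 CPM, 1.14) and Pcyt1b, a CTP:phosphocholine transferase (11 and 31.9 CPM, 1.45). Both passed the filter through Fasn-R1812W alone, where they were high: Lpcat3 reads were in 8.98% and 29.0% of nuclei and Pcyt1b reads in 5.39% and 12.6%, WT before Fasn-R1812W. Sphk2 passed through WT alone (10.8% and 8.05%). The others lower in Fasn-R1812W had a read in a larger share of nuclei there. It was 8.98% and 10.3% for Ormdl3, 14.97% and 19.3% for Smpd1, 13.8% and 19.8% for Cers1 and 8.98% and 12.6% for Ormdl1. These shares were not thinned to 1 depth, and the counts of members are a description only. Thinned to 50000 reads, the last 4 pairs were 8.38% and 6.03%, 13.8% and 10.9%, 11.4% and 9.48%, and 8.98% and 7.47%. Within each thinned pair the 95% Clopper-Pearson intervals overlapped. When nuclei needed only 300 genes and 20000 reads, which gave 352 EdU+ WT nuclei, Lpcat3 came to -0.51 and Pcyt1b to -0.03, while Ormdl3 came to -1.97, Sphk2 to -2.50 and Smpd1 to -2.11. The ratios of Cers1 (-0.49) and Ormdl1 (-0.46) then fell short of 2-fold. The EdU+ libraries also differed in summed markers of microglia (1183 and 3144 CPM) and leukocytes (173 and 3854 CPM), whose part was not tested. The count of microglia-like nuclei moved with the nucleus filter, from 3 of 167 WT and 32 of 348 Fasn-R1812W nuclei to 27 of 352 and 30 of 376 with the relaxed one.

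**Figure D3:**
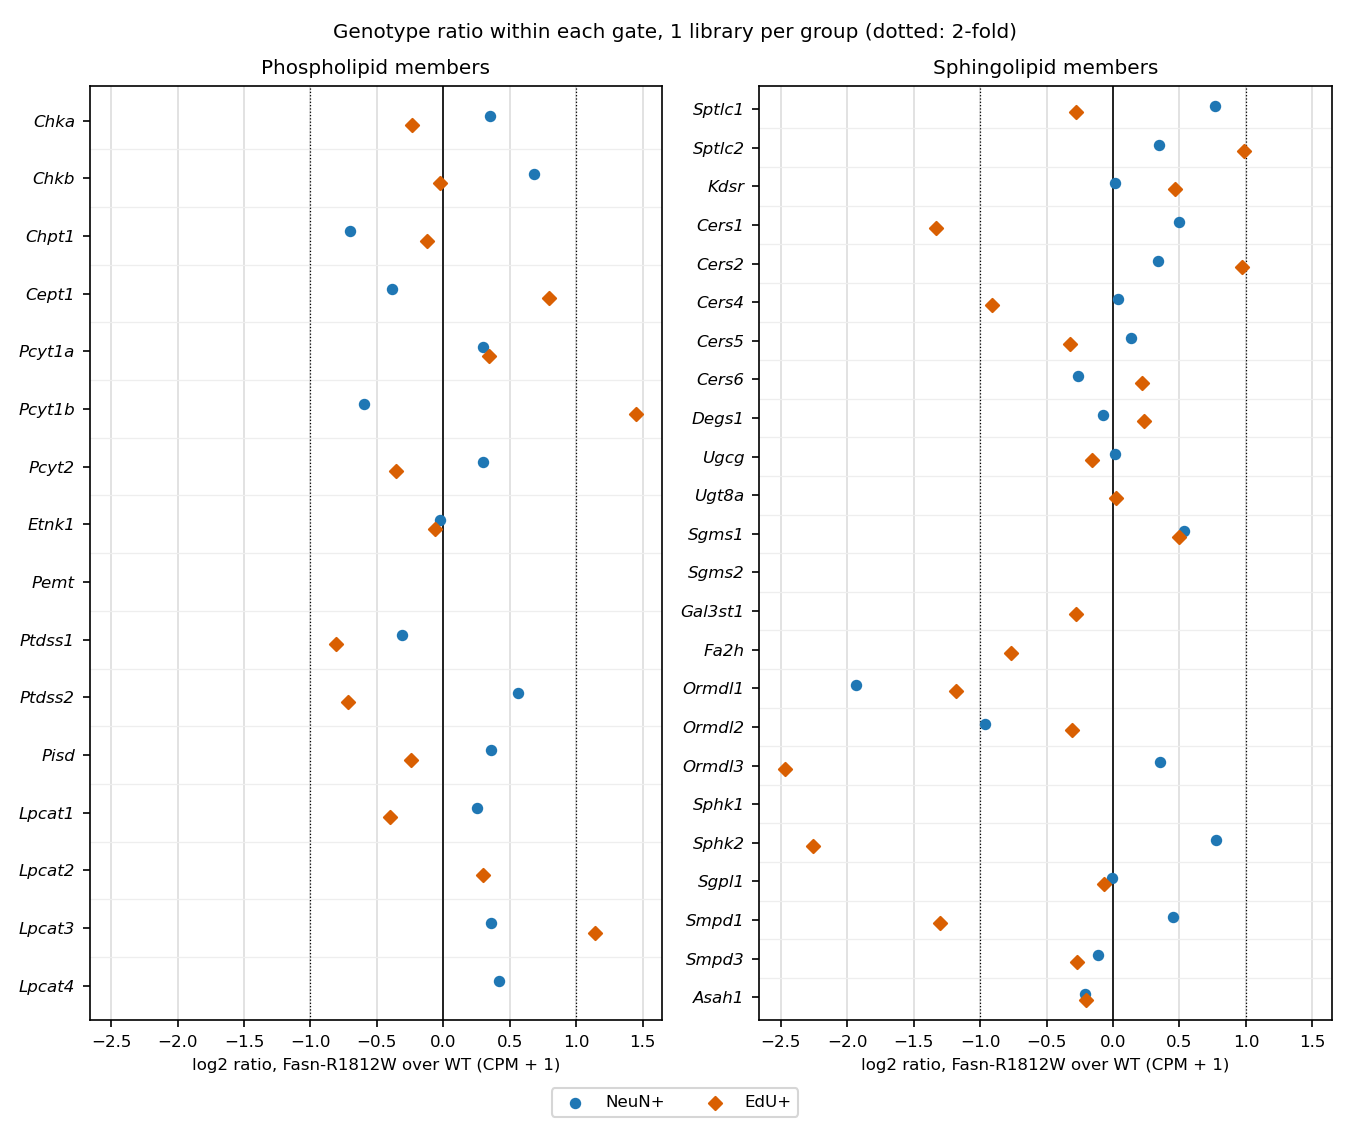
Log2 ratio of Fasn-R1812W over WT, with 1 CPM added, within NeuN+ (blue circles) and within EdU+ (orange diamonds), for members that passed the filter of that gate; dotted lines mark 2-fold and each point compares 1 library with 1 library. In NeuN+ only Ormdl1 lies beyond 2-fold, and in EdU+ 5 sphingolipid members lie to the left and 2 phospholipid members to the right.

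The branches were described apart by their medians. Within NeuN+ the median log2 ratio was 0.30 over 14 phospholipid members, of which 9 were above 0, and 0.03 over 19 sphingolipid members, of which 12 were, beside 0.02 over all genes, of which 52.0% were. Within EdU+ it was -0.09 over 14 phospholipid members (5 above 0) and -0.27 over 22 sphingolipid members (7 above 0), beside 0.09 over all genes (54.1% above 0). Over genes of the same pathways beyond the members, the EdU+ median was -0.30 for 20 phospholipid and 0.12 for 19 sphingolipid genes.

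Kept nuclei were clustered within each gate without the members and other lipid genes, and clusters were named from marker lists. The 5 NeuN+ classes with at least 10 nuclei in both libraries were dentate granule-like (133 WT and 79 Fasn-R1812W nuclei), CA1 pyramidal-like (42 and 64), subicular or entorhinal-like (36 and 36), interneuron-like (32 and 22) and mossy-like (17 and 30). A cluster led by Pvalb, with 14 and 20 nuclei, stayed unnamed and is not in the interneuron-like class. In EdU+ the classes were oligodendrocyte precursor-like (66 and 140), neuroblast or intermediate progenitor-like (24 and 43), committed precursor-like (20 and 29), mature oligodendrocyte-like (14 and 22) and radial glia-like (11 and 17), the last led by cell-cycle genes such as Kif11 and Top2a. The precursor-like class joined 3 clusters, and cluster 1 held 14 and 66 of its nuclei, cluster 3 22 and 54 and cluster 8 30 and 20, so different clusters held most of it in the 2 libraries. All 8 precursor markers were 2-fold up in each of the 3, but none was among the leading genes. Gm44894, Zfp488 and Fam228a were leading genes of cluster 3. They also led a committed precursor-like cluster with 10 principal components and a precursor-like one with 30. The split between these 2 names thus depended in part on the clustering. No other clustering gave a mossy-like or radial glia-like class, and none was mature oligodendrocyte-like with 30 principal components or the relaxed filter. The mossy-like cluster had 3 of 6 mossy markers 2-fold up and none among its leading genes. Col6a1, Col6a2 and Cpne7 led it. They also led a CA1 pyramidal-like cluster with 10 principal components and a CA3 pyramidal-like cluster with 30, so the name depended on the clustering. Levels by class are a description of this clustering, with no test.

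**Figure D4:**
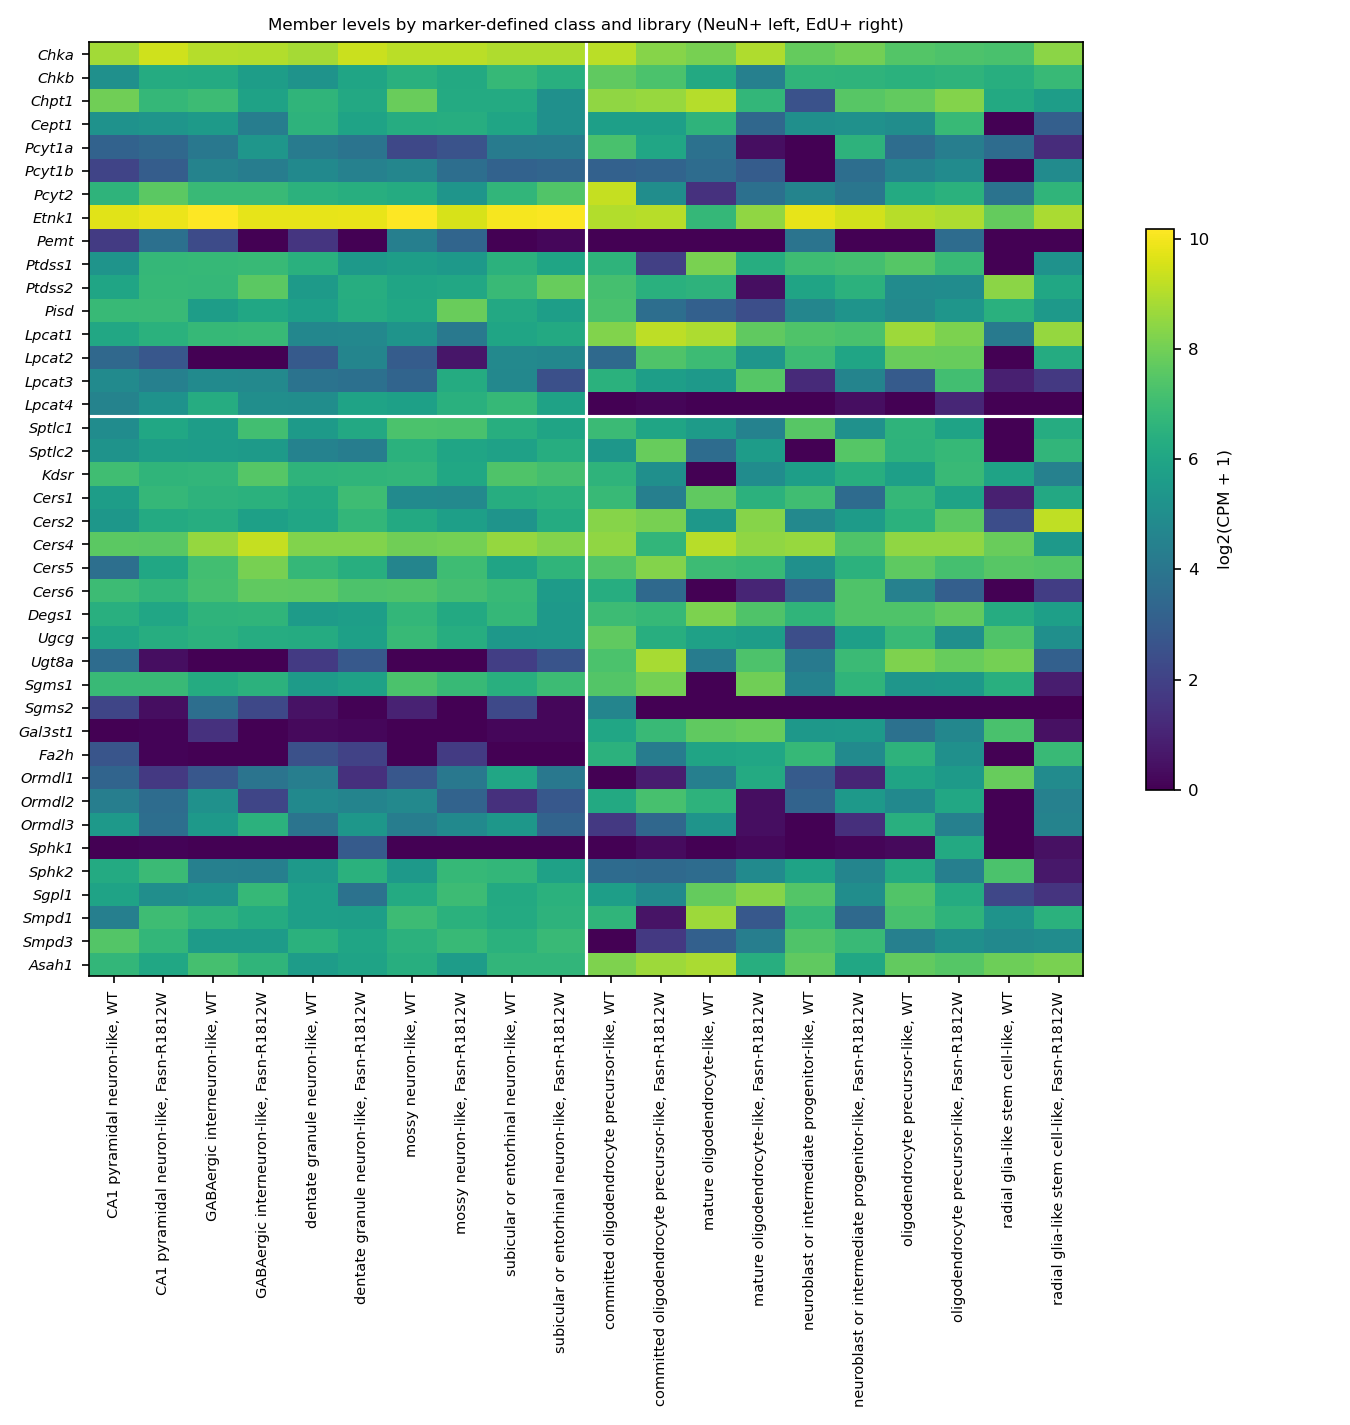
Log2 of CPM plus 1 for each of the 40 members (rows) in the 10 compared classes of the 2 libraries of each gate (columns), NeuN+ left and EdU+ right of the white line, phospholipid members above and sphingolipid members below. Etnk1 and Chka are bright across the NeuN+ classes, and Ugt8a, Gal3st1 and Fa2h are dark there.

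Etnk1 was high in every NeuN+ class, from 845 to 1159.7 CPM in WT and from 763 to 1111 CPM in Fasn-R1812W, and every nucleus of the 5 classes had a read of it. Chka ranged from 436 to 561 CPM in WT and from 495 to 704 CPM in Fasn-R1812W. It was higher in Fasn-R1812W in CA1-like (436 and 704 CPM) and granule-like nuclei (447 and 652, but 495 and 494 when classes were set by marker score) and nearly the same in mossy-like (561 and 559) and subicular-like nuclei (494 and 495). Chpt1, the cholinephosphotransferase that completes phosphatidylcholine, was lower in Fasn-R1812W in all 5: 251 and 109 CPM in CA1-like, 230 and 73.2 in mossy-like, 126 and 57.2 in interneuron-like, 99.2 and 69.2 in granule-like and 74.4 and 34.0 CPM in subicular-like nuclei. The 5 classes share 1 pair of libraries (pooled 135 and 82.5 CPM), so they do not repeat the comparison. Over all 10 compared classes of both gates Chpt1 was lower in 7 and higher in 3. It was picked after its values were seen, and the share of all genes lower in all 5 was not computed. At least 2-fold differences held for 28.5% of all genes in CA1-like, 42.1% in mossy-like, 42.0% in interneuron-like, 21.2% in granule-like and 36.2% in subicular-like nuclei.

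The ceramide synthases varied between neuron classes. Cers4 was highest in interneuron-like and subicular-like nuclei of WT (at least 383 CPM) and lowest in CA1-like nuclei (195), and in Fasn-R1812W it was highest in interneuron-like (622) and lowest in CA1-like nuclei (192). Cers6 was highest in WT in granule-like nuclei at 201 CPM, where Fasn-R1812W had 162 CPM, and in Fasn-R1812W it was highest of the 5 classes in interneuron-like nuclei at 204 CPM. Cers5 was at 12 and 65.9 CPM in CA1-like nuclei and at 23.9 and 127 CPM in mossy-like nuclei, in the order WT, Fasn-R1812W, but at 110 and 83.2 CPM in granule-like nuclei. The lower Ormdl1 of NeuN+ Fasn-R1812W was seen in granule-like (19.4 and 1.64 CPM), subicular-like (63.3 and 16.1) and CA1-like nuclei (8.83 and 2.27), whereas interneuron-like (5.78 and 14.0) and mossy-like nuclei (5.88 and 15.9) went the other way. No class had more than 18 nuclei with an Ormdl1 read. Ugt8a was found in at most 4 nuclei of any of these classes.

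In EdU+ the members called between gates were not limited to 1 class. Ugt8a was at 295 CPM in WT (95% Poisson interval 281 to 310) and 224 in Fasn-R1812W (219 to 229) in oligodendrocyte precursor-like nuclei, with a read in 13 of 66 and 62 of 140 nuclei. It was at 158 and 458 CPM in committed precursor-like and at 18.2 and 159 CPM in mature oligodendrocyte-like nuclei, where 95.2% and 83.2% of the reads lay in 1 nucleus. With classes set by marker score it was at 197 and 306 CPM in committed precursor-like and at 0 and 339 CPM in mature oligodendrocyte-like nuclei, the last from 6 and 14 nuclei. Gal3st1 was highest in mature oligodendrocyte-like nuclei in both libraries, at 207 and 223 CPM, with a read in 2 of 14 and 8 of 22 nuclei. In precursor-like nuclei it was at 12.8 and 24.9 CPM. Fa2h was at 95.3 and 33.8 CPM in precursor-like nuclei and 59.9 and 64.8 CPM in mature oligodendrocyte-like nuclei.

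Lpcat1 was at 412 and 285 CPM in precursor-like and at 308 and 582 CPM in committed precursor-like nuclei. Lpcat2 was at 232 and 226 CPM in precursor-like nuclei, while the 32 microglia-like nuclei of EdU+ Fasn-R1812W stood at 801 CPM with a read in 24 of them. EdU+ WT held 3 microglia-like nuclei after the nucleus filter, too few to compare. Chpt1 was at 214 and 313 CPM in precursor-like nuclei, with a read in 103 of 140 Fasn-R1812W nuclei. The lower Ormdl3 and Sphk2 of EdU+ Fasn-R1812W appeared in precursor-like nuclei, at 85.7 and 20.5 CPM for Ormdl3 and 73.6 and 20.03 CPM for Sphk2, with 5 of 66 WT nuclei holding a read of each. Sphk1 was at 72.3 CPM in precursor-like nuclei of Fasn-R1812W, from 12 of 140 nuclei, and at under 1 CPM in each other compared EdU+ class of that library. Over all kept nuclei of that library, 1 nucleus held 55.2% of the Sphk1 reads. At least 2-fold differences held for 41.3% of all genes in precursor-like nuclei, 62.7% in neuroblast-like, 68.7% in committed precursor-like, 71.7% in mature oligodendrocyte-like and 72.8% in radial glia-like nuclei, so differences of that size were common there.

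Other genes of the pathways were read in the same gate fit. Of 26 tested phospholipid genes beyond the members, 2 were called, both higher in EdU+. Pld1, a phospholipase D that makes phosphatidic acid from phosphatidylcholine, was at 0.389 and 0.342 CPM in NeuN+ and 140 and 111 CPM in EdU+ (log2 difference 8.39, adjusted p = 0.00819, edgeR). Agpat5, which acylates lysophosphatidic acid, was at 58.2 and 58.2 CPM in NeuN+ and 234 and 193 CPM in EdU+ (log2 1.84, adjusted p = 0.0380, edgeR). None of 20 tested sphingolipid genes beyond the members was called by edgeR, and 4 had an unadjusted p under 0.05. For the genotype term, 0 of the 26 and 0 of the 20 genes were called by edgeR, and 0 had an unadjusted p under 0.05. DESeq2 called 7 of the 26 and 3 of the 20 between gates and 0 of either list between genotypes, with 1 unadjusted p under 0.05 in each.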

How the data were processed

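Read counts of single nuclei were analysed in 4 libraries, as deposited by the authors: whole-number counts per gene and well, with no normalization. Per the submitters' processing notes, Trimmomatic 0.36, STAR 2.5.3a and build GRCm38.p5 were used. How reads were assigned to genes, and whether by strand, is not given in the sources used here. The tables hold a few more wells than the 382 nuclei stated per library. Counts were summed over kept nuclei. Log2 ratios used a prior of 1 CPM. Exon lengths and overlaps came from GENCODE release M21 (GRCm38).

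Gate and genotype were fitted with edgeR 4.0.16 (quasi-likelihood, TMM, mean CPM of at least 5, R 4.3.3). DESeq2 1.42.0 was an alternative. On simulated counts over 13526 genes, this gate fit called 46 of 50 genes raised 64-fold, 25 of 50 raised 16-fold, 46 of 46 lowered 64-fold, 22 of 41 lowered 16-fold, and 4 of 13339 unaltered genes. Those counts were drawn from the mean profile of the 4 libraries, with a dispersion of 0.378 for every gene and no genotype effect. Smaller folds were not drawn, and spread that differs between genes was left out. The simulation thus gives no rate of false calls for the real libraries. Clusters used scanpy 1.11.5 (Leiden resolution 1, 15 neighbours, 20 principal components of 2000 variable genes). A cluster took the name of the best marker list when at least 3 of its markers were 2-fold up against all other kept nuclei of both gates and at least 3 were detected. It stayed unnamed when another list had more markers among its 10 leading genes, or when its nuclei were shallow and none of its own markers led. This rule, and the choice not to scale genes before clustering, were set after clusters were seen and before member levels by class were read. No doublet caller was run. Intervals hold only the error of counting, because PCR copies of 1 molecule are counted as separate reads.

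The members and lists were chosen with earlier results of these data known. Full values are given for the 5 highest members per kb in each branch, members called in a fit, members at least 2-fold apart within a gate and members opposite in the gates. Other members, and Chpt1 and the ORMDL and LPCAT families by class, were named after their values were seen. Alternatives covered scaling, gene and nucleus filters, thinning, prior, class assignment and leaving out each library, where gate or genotype was fitted alone. A relaxed filter with DESeq2 was added after seeing the data.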

Additional observations from a re-analysis of the deposited data

Results flagged for a closer look

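Pcyt1b and Sphk2 were each at least 1.5-fold apart between genotypes in opposite directions in the 2 gates, and the difference between gates was not tested. Pcyt1b had a log2 ratio of Fasn-R1812W over WT of -0.60 within NeuN+ (22.7 and 14.6 CPM) and 1.45 within EdU+ (11 and 31.9 CPM). With the relaxed nucleus filter the EdU+ ratio of Pcyt1b was -0.027, so the opposite direction was lost. In EdU+ Fasn-R1812W, 54.7% of the Pcyt1b reads lay in 1 nucleus. Sphk2 had a log2 ratio of 0.77 within NeuN+ (51.4 and 88.5 CPM) and -2.26 within EdU+ (67.3 and 13.3 CPM). With the relaxed filter these were 0.76 and -2.50.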

How the results depend on the processing

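Libraries could not be paired by animal, because each group had 1 library and the labels carry no replicate numbers. The gate fit held genotype as a term, so it compared gates within genotype. Of the members called between gates, 6 in the reported fit, the number was 14 with DESeq2, 11 with a mean CPM of at least 20, 10 with the relaxed nucleus filter, 0 with the strict one, 11 with none and 10 with thinned nuclei. It was 16 with DESeq2 and the relaxed filter together, an alternative chosen after seeing the data, and ranged from 3 to 17 when 1 library was left out and gate alone was fitted. Library totals gave 7 and no filter on low counts 8. All 6 reported members were among those called under each of these settings except 3: the strict filter called none of them, and leaving out NeuN+ WT or NeuN+ Fasn-R1812W called 3 of them. Between genotypes over both gates, DESeq2 called 1 member against 0. Within NeuN+, 2 members were at least 2-fold apart with the relaxed, the strict or no nucleus filter or a prior of 0.1 CPM, and 0 with at least 20 CPM in 20% of nuclei, against 1 reported. Within EdU+, 1 was with at least 20 CPM in 20% of nuclei and 27 with the strict filter, against 7 reported. The strict filter moved the EdU+ medians to 3.37 (phospholipid) and 1.70 (sphingolipid) and that of all genes to 2.24, and reversed Cers1 (4.51), Ormdl3 (4.16) and Smpd1 (5.75); it left 5 EdU+ WT nuclei. Pcyt1b reversed with the relaxed filter (-0.027), and Lpcat3 with the relaxed (-0.51) and no filter (-0.45). Class medians moved from -0.55 to 0.53 in committed precursor-like nuclei with 10 principal components, from 0.26 to -0.96 in neuroblast-like and from 0.82 to 5.49 in radial glia-like nuclei when classes were set by marker score. By marker score, the neuroblast-like class held 9 WT and 15 Fasn-R1812W nuclei. The radial glia-like class held 1 and 4, so its median rests on 1 WT nucleus. The 10 class levels of Ugt8a, Chka and Etnk1 recomputed by marker score all moved beyond their counting intervals: Ugt8a in precursor-like nuclei went from 295 and 224 to 242 and 286 CPM, and Etnk1 in granule-like nuclei from 889 and 906 to 767 and 802 CPM. The cause was not tested. Depth limits EdU+ WT most, with a median of 1298 genes per kept nucleus.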
